A study of Mus musculus with 14 samples.

Results

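The genes described here are 10 tubulin isotypes of the mouse, the beta-tubulin genes Tubb3, Tubb2a, Tubb2b, Tubb4a, Tubb4b, Tubb5 and Tubb6 and the alpha-tubulin genes Tuba1a, Tuba1b and Tuba1c. They were chosen by name, as the isotypes measured beside Tubb3, and all 10 were found by RefSeq identifier or older symbol among the 23152 loci of each RNA-seq table. The study asked how TAF9B, a subunit shared by the TFIID and SAGA/PCAF complexes, bears on gene expression when mouse embryonic stem (ES) cells become motor neurons. Poly-A RNA-seq was made from 1 library per condition: C57BL/6 ES cells (wild type, JM8 clone; TAF9B -/-, Taf9b_BG10 clone), embryoid bodies (EB) of both clones at day 2, at day 4 (neuronal progenitors) and at day 6 (motor neurons), newborn spinal column of both genotypes, and wild-type newborn spinal cord. The EBs had been treated with retinoic acid and an agonist of the Smoothened receptor, and each genotype of the cultures is 1 clone. In the knockout allele a LacZ-Neo cassette stands in place of the coding exons of Taf9b, and how many animals went into a tissue library is not given in the sources used here. ChIP-seq for TAF9B and RNA polymerase II (POL2) was made in wild-type EB motor neurons of another line, the HBG3 clone, after 8 days of differentiation, later than the day 6 RNA-seq libraries, and gave 1 peak list each.

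Microtubules are polymers of alpha- and beta-tubulin dimers, and both subunits come from small gene families whose proteins differ mainly in their C-terminal tails. Tubb3 encodes beta-III tubulin, a standard marker of neurons, while Tubb5 and Tuba1b are expressed in most dividing cells. Tubb2a, Tubb2b, Tubb4a and Tuba1a are abundant in nervous tissue, and mutations of several of these genes cause malformations of the brain.

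With 1 library per condition no test of a condition was possible, and each difference below is a ratio of 2 libraries with no replicate error. FPKM values (fragments per length of transcript and per mapped fragments of the library) were taken as deposited, log2 ratios carry no pseudocount, and a member was counted as higher or lower when it passed 2-fold with more than 1 FPKM in at least 1 library. FPKM is a level per transcript length, so members are compared on it. The sequencing depth behind each FPKM value is unknown. Taf9b itself, the gene deleted in the knockout, had 0.537 FPKM in the ES library labelled WT and 3.06 in the one labelled KO. At day 2 the values were 0.516 and 4.08, at day 4 1.96 and 4.27, and at day 6 1.37 and 4.01. In spinal column the order was the opposite, with 6.65 FPKM in the library labelled WT and 3.31 in the one labelled KO, and spinal cord had 7.44. The Taf9b values of the 4 pairs of cultures therefore go against their labels, a value per locus does not show which exons the reads came from, whether labels were exchanged was not tested, and all directions below refer to the labels as deposited ("the library labelled KO").

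In the wild-type ChIP data, 5 of the 10 members had the midpoint of a TAF9B peak within 500 bp of an annotated start (GENCODE, mm9): Tubb3, Tubb4a, Tubb5, Tuba1a and Tuba1b. Among the 12546 genes above 1 FPKM at day 6 in either library that could be placed in the GENCODE annotation, 30.9% had such a peak. The peaks at Tubb3 and Tuba1a had the highest scores of the 5, and those at Tubb5 and Tuba1b belong to members that did not pass 2-fold between the RNA-seq libraries below. The sequence under these peaks is shown from mm9, together with a distal peak upstream of Tuba1a. Tubb4a is not shown, since too few bases of its window lay before the RefSeq transcript. Each window is centred on the peak's midpoint, reads 5′ to 3′ on the strand of the gene, and stops where the RefSeq transcript begins; capitals mark CCAAT and GGGCGG on either strand (ATTGG and CCGCCC on the other), the boxes bound by NF-Y and Sp1.
Tubb3, peak at the start, chr8:125935189-125935463, plus strand: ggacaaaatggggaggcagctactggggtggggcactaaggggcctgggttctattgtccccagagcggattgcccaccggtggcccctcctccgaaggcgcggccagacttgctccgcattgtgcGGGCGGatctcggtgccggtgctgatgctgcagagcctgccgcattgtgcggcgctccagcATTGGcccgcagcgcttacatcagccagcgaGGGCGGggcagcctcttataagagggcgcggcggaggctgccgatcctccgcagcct
Tuba1a, peak at the start, chr15:98783933-98784198, minus strand: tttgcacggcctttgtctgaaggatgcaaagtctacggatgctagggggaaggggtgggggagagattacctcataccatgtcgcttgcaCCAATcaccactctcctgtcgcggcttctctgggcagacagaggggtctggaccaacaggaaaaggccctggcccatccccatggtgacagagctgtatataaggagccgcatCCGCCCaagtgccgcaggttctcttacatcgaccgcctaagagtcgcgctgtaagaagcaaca
Tubb5, peak at the start, chr17:35975247-35975420, minus strand: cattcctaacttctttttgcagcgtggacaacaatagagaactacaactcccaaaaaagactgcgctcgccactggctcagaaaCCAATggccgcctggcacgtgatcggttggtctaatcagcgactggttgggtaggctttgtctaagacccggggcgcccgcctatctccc
Tuba1b, peak at the start, chr15:98765015-98765314, minus strand: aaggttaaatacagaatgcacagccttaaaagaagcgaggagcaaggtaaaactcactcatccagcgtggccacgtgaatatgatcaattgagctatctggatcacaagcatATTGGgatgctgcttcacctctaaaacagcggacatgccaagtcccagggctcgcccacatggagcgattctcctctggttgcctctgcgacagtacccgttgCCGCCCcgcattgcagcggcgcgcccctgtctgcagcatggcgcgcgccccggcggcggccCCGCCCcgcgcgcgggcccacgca
Tuba1a, peak 15.66 kb upstream, chr15:98799492-98799791, minus strand: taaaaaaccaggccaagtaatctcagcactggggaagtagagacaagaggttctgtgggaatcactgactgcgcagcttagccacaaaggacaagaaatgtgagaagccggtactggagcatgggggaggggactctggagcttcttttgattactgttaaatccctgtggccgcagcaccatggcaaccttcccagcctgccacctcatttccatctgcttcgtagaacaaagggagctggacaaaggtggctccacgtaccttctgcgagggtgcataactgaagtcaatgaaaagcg

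The Tubb3 window held 1 CCAAT box and 2 GGGCGG boxes in 275 bases, and the Tuba1a window at the start held 1 of each in 266 bases. The Tuba1b window held 1 CCAAT box and 2 GGGCGG boxes in 300 bases, the Tubb5 window only 1 CCAAT box in its 174 bases, and the distal window none of them. The exact hexamer TATAAA, a form of the TATA box, was found in none of the 5 windows on either strand. Other forms were not searched for, and the Tuba1a window at the start reads tatataag, which this hexamer does not match. No match of a motif overlapped one of another in these windows. In 4347 windows of 300 bases centred on the TAF9B peaks that lay within 500 bp of a protein-coding start, CCAAT was present in 44.7%, GGGCGG in 61.4% and TATAAA in 4.05%. In windows from 250 bases before to 50 after the outermost start, 7 of the 10 members held CCAAT, 7 held GGGCGG and 2 held TATAAA, against 37.9%, 43.4% and 13.4% of 22380 protein-coding genes. Tubb4a held none of these motifs. The study's ChIP primers for the Tubb3 promoter lie inside the Tubb3 window and enclose 115 bp at chr8:125935294-125935408.
Tubb3 promoter, forward primer: cagacttgctccgcattgt
Tubb3 promoter, reverse primer: cctcgctggctgatgtaag

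The TAF9B peak at Tubb3 (RefSeq NM_023279, chr8:125935464-125945910, plus strand) covered chr8:125935175-125935502. Its midpoint, in the UTR that GENCODE annotates, lay 14 bp downstream of the GENCODE start and 126 bp upstream of the RefSeq start. Its score of 201.6 was above 91.0% of the 10415 TAF9B peaks, whose median was 83.3, and it overlapped a POL2 peak with a score of 379.8. The other TAF9B peaks within 50 kb of Tubb3, with scores of 54.0 and 52.0, lay 31.5 and 31.8 kb downstream, next to the start of Def8.

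Tuba1a (NM_011653, chr15:98780278-98783932, minus strand) carried the strongest TAF9B signal of the members. Its peak at the start, chr15:98783850-98784246, had a score of 280.0, above 97.0% of the list, and overlapped a POL2 peak with a score of 1473. The distal peak, chr15:98799495-98799787, was intergenic, scored 342.2 (above 98.7% of the list) and overlapped no POL2 peak. Tuba1a and Tuba1b are neighbours, so the 50 kb windows around them share 5 TAF9B peaks, the distal one included, and its nearest annotated start was that of Tuba1a.

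At the remaining 3 starts with TAF9B the scores were low. They were 65.5 at Tubb5 (chr17:35975191-35975350, 19 bp upstream), 53.1 at Tubb4a (chr17:57227023-57227171, 108 bp downstream, in the UTR) and 52.8 at Tuba1b (chr15:98765088-98765241, 168 bp upstream). All 5 TAF9B peaks at starts overlapped a POL2 peak. With peaks above the median score alone, 2 members, Tubb3 and Tuba1a, kept a TAF9B peak within 500 bp.

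The other 5 members had no TAF9B peak within 500 bp of a start. Tubb2a (chr13:34166147-34169877) had one in its intron, 1049 bp downstream of the start, with a score of 89.6, and Tubb2b (chr13:34218877-34222223) had one 1589 bp upstream with a score of 58.2. Tubb4b (chr2:25074265-25080222) had its nearest TAF9B peak 4.09 kb upstream, score 64.8, although a POL2 peak with a score of 540.0 lay 49 bp from its start. Tuba1c (chr15:98860322-98868536) had its nearest TAF9B peak 36.66 kb upstream, and the start nearest to that peak was that of Gm8973. Within 50 kb of Tubb6 (chr18:67550385-67562403) neither list used here held a peak.

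Within 50 kb of the gene, 9 of the 10 members had at least 1 TAF9B peak, against 74.2% of genes above 1 FPKM. For 8 of them the nearest annotated start to such a peak was the member's own. POL2 was found within 500 bp of a start at 8 members, against 53.9% of genes above 1 FPKM, the exceptions being Tubb2b and Tubb6. At Tubb2b a POL2 peak of 2978 bp covered the start, with its midpoint 763 bp upstream and a score of 3100, equal to the highest in that list.

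**Figure D1:**
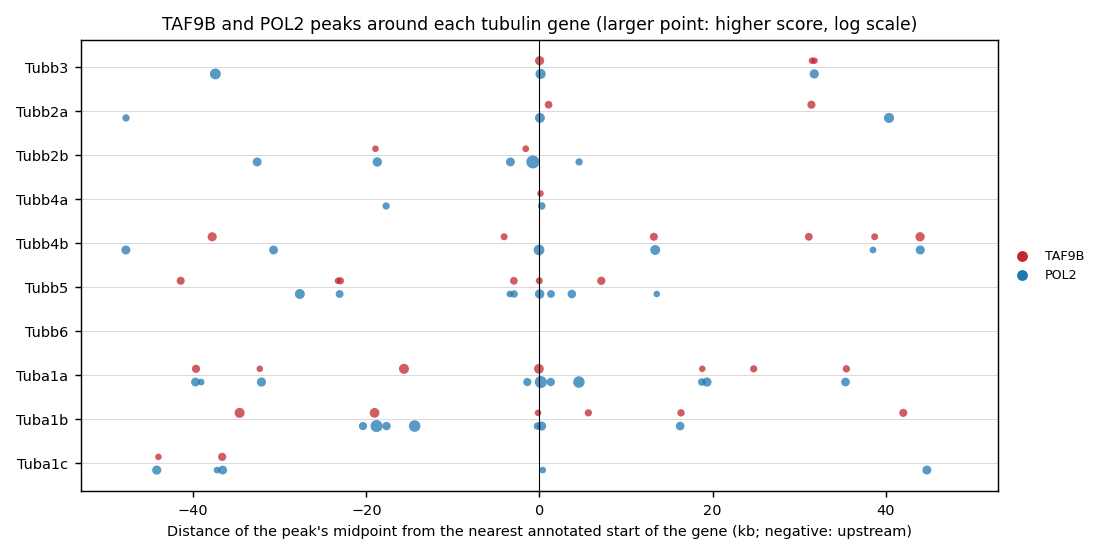
TAF9B (red) and POL2 (blue) peaks around the 10 tubulin genes in wild-type EB motor neurons, by distance of the peak's midpoint from the nearest annotated start of the gene (x axis, kb, negative upstream), with larger points for higher scores. TAF9B and POL2 points coincide at the start of Tubb3, Tubb4a, Tubb5, Tuba1a and Tuba1b, Tubb6 has none, and the Tuba1a row shows a TAF9B point with no POL2 point 15.66 kb upstream.

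Tubb3 stayed between 14.4 and 41.7 FPKM in ES cells and in EBs at days 2 and 4. ES cells had 30.5 FPKM in the library labelled WT and 30.0 in the one labelled KO, day 2 had 32.8 and 41.7, and day 4 had 14.4 and 18.0. At day 6 the library labelled WT reached 561 FPKM, while the library labelled KO had 41.3, a log2 ratio of -3.76. Of the 12985 genes with more than 1 FPKM at day 6, 1.11% had a lower ratio. Newborn spinal column had 331 FPKM in the library labelled WT and 208 in the one labelled KO, and spinal cord had 749, the highest of the 11 libraries.

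Tubb2a and Tubb2b, a pair of neighbouring and closely similar genes, had the same order at day 6 with a smaller difference. Tubb2a was at 41.0 and 48.5 FPKM in the ES libraries labelled WT and KO, at 26.7 and 27.0 at day 2, and at 31.3 and 35.3 at day 4. It had 188 and 71.6 FPKM at day 6 (log2 ratio -1.39), 407 and 304 in spinal column, and 1040 in spinal cord. Only the day 6 pair differed by more than 2-fold. Tubb2b had 133 and 143 FPKM in ES cells, 83.8 and 80.4 at day 2, and 121 and 122 at day 4. At day 6 it had 583 and 153 (log2 ratio -1.93), in spinal column 524 and 366, and in spinal cord 1171. Its level at day 6 in the library labelled KO was close to that of ES cells.

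Tubb4a, the isotype of mature neurons and oligodendrocytes, was the least abundant member in the cultures. It had 2.81 and 3.07 FPKM in the ES libraries labelled WT and KO, 4.74 and 6.44 at day 2, 4.32 and 3.29 at day 4, and 21.7 and 1.74 at day 6. The day 6 log2 ratio was -3.64. In spinal column the values were 122 and 43.7 FPKM, a log2 ratio of -1.48, and in spinal cord 211. Tubb4a was thus lower by more than 2-fold in the library labelled KO in both the day 6 pair and the spinal column pair.

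The broadly expressed beta-tubulins behaved otherwise. Tubb5, the main beta-tubulin of dividing cells, was the most abundant beta-tubulin in every culture library. It had 1096 and 1129 FPKM in the ES libraries labelled WT and KO, 1066 and 1034 at day 2, 1419 and 1151 at day 4, and 1800 and 1096 at day 6. In the tissues it had less, 475 and 424 FPKM in spinal column and 634 in spinal cord. Tubb4b, a broadly expressed isotype also found in cilia, had 401 and 467 FPKM in ES cells, 451 and 459 at day 2, 335 and 281 at day 4, and 385 and 406 at day 6. It had 157 and 188 FPKM in spinal column and 170 in spinal cord, below every culture library. Tubb6 had 89.8 and 92.5 FPKM in ES cells, 56.1 and 62.3 at day 2, 107 and 104 at day 4, 101 and 118 at day 6, and 84.6 and 138 in spinal column. Its 10.7 FPKM in spinal cord was the lowest of its 11 values.

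Of the alpha-tubulins, Tuba1a followed the pattern of the first group. It had 365 and 392 FPKM in the ES libraries labelled WT and KO, 628 and 775 at day 2, and 590 and 649 at day 4. At day 6 the values were 2218 and 672, a log2 ratio of -1.72, and in spinal column 1782 and 1693. In the spinal cord table Tuba1a was not estimated, since the locus carried the flag for too many reads and was listed at 0. Tuba1b, the ubiquitous alpha-tubulin, had 1242 and 1251 FPKM in ES cells, 1232 and 1305 at day 2, 1579 and 1080 at day 4, 1659 and 1242 at day 6, 621 and 672 in spinal column, and 1593 in spinal cord. Tuba1c had 356 and 385 FPKM in ES cells, 380 and 383 at day 2, 390 and 320 at day 4, 524 and 365 at day 6, 233 and 267 in spinal column, and 707 in spinal cord. Neither gene differed by 2-fold between the libraries of any pair.

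**Figure D2:**
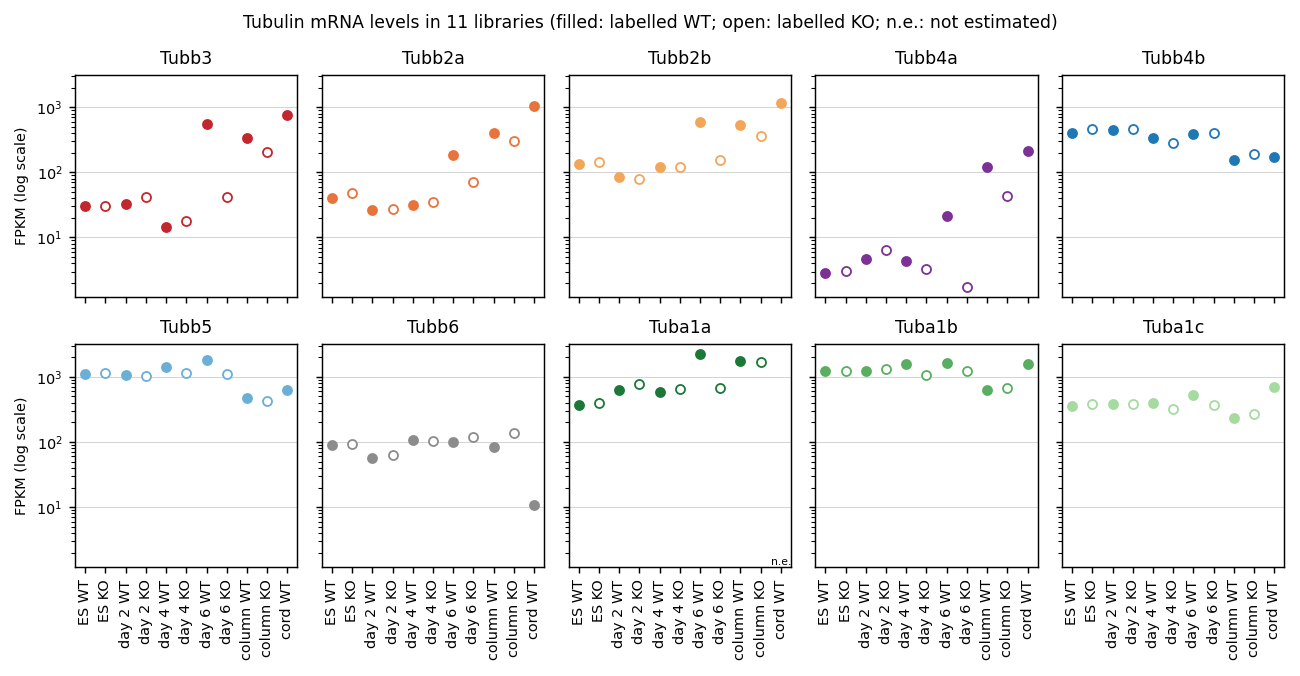
FPKM (y axis, log scale) of each tubulin isotype in the 11 RNA-seq libraries (x axis), with filled points for libraries labelled WT and open points for those labelled KO; each point is 1 library and n.e. marks a value that was not estimated. Tubb3 sits between 14.4 and 41.7 FPKM up to day 4 and separates at day 6 into 561 (WT) and 41.3 (KO), whereas Tubb4b has nearly the same level in both libraries of each pair.

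Counted over the members, the pairs of libraries differed at day 6 more than before it. In ES cells, at day 2 and at day 4 none of the 10 members passed 2-fold, where 1.13%, 2.59% and 16.5% of all expressed genes did in either direction. The members' log2 ratios ran from -0.02 to 0.24 in ES cells, from -0.06 to 0.44 at day 2 and from -0.55 to 0.32 at day 4. At day 6, 5 of the 10 were lower by more than 2-fold in the library labelled KO (Tubb3, Tubb4a, Tubb2b, Tuba1a and Tubb2a) and none was higher, where 9.93% of 12985 genes were lower and 10.5% higher. The median log2 ratio of the members was -1.05, beside -0.003 for all genes. Among the other 5 members, Tubb5 had a log2 ratio of -0.72, Tuba1c of -0.52, Tuba1b of -0.42, Tubb4b of 0.08 and Tubb6 of 0.23.

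The peaks come from day 8 cultures of another line, so they are set here beside expression of an earlier stage. Of the 5 members that were lower, Tubb3, Tubb4a and Tuba1a had a TAF9B peak at their start and Tubb2a and Tubb2b had none within 500 bp. Tubb5 and Tuba1b had such a peak and did not pass 2-fold. Members with and without the peak therefore stood on both sides of the limit.

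**Figure D3:**
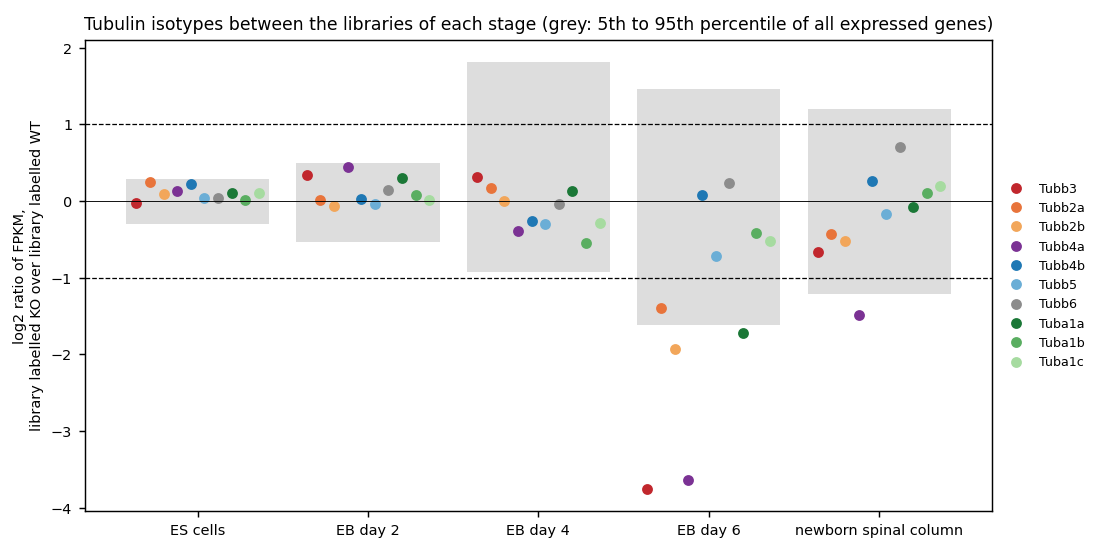
Log2 ratio of FPKM, library labelled KO over library labelled WT (y axis), of the 10 tubulin isotypes in each of 5 pairs of libraries (x axis); grey bands span the 5th to 95th percentile of all expressed genes and dashed lines mark 2-fold. Tubb3 (-3.76) and Tubb4a (-3.64) lie far below the day 6 band, and Tubb4a (-1.48) is the only member past 2-fold in spinal column.

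Some members share long stretches of sequence, and how the authors' counting split such reads is not given in the sources used here. Of the 50-base stretches of the longest GENCODE transcript, 46.4% of Tubb2a occurred in Tubb2b as well, and 57.1% of Tuba1a, 64.6% of Tuba1b and 60.0% of Tuba1c occurred in another member. For Tubb3, Tubb4b and Tubb6 the share was 0%, and for Tubb4a 0.184% and Tubb5 0.0385%. The values of Tubb2a against Tubb2b, and those within the Tuba1 genes, are therefore uncertain, which does not apply to Tubb3. Summed, Tubb2a and Tubb2b had 770 FPKM at day 6 in the library labelled WT and 224 in the one labelled KO (log2 ratio -1.78). The sum of the Tuba1 genes had a log2 ratio of -0.95, just within 2-fold.

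Markers of other cells moved with the day 6 difference. The summed FPKM of 10 general neuronal genes (Elavl3, Elavl4, Dcx, Map2, Stmn2, Snap25, Syt1, Nefm, Nefl, Ina) was 619 in the library labelled WT and 103 in the one labelled KO, where 10 and 5 of them were above 1 FPKM. Over the 11 libraries this sum ran from 38.9 in the day 4 library labelled WT to 1792 in spinal cord, and the 193 FPKM of the ES library labelled WT were mostly Stmn2. The 6 motor neuron genes (Mnx1, Isl1, Isl2, Lhx3, Slc18a3, Chat) summed to 75.4 and 3.34 FPKM, with Chat at 0 in the library labelled KO, and the 6 neural progenitor genes to 123 and 19.2. The 4 simple epithelial genes (Krt8, Krt18, Krt19, Epcam) summed to 169 and 1148 FPKM, and the 5 ES cell genes to 342 and 886. In bulk RNA fewer neurons and less tubulin RNA per neuron cannot be told apart, and the part of these cell types in the tubulin differences was not tested.

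The course from ES cells to day 6 was compared within each label. These values come from tables that were normalized separately, and the ratios share their day 6 and ES libraries with the pairs above. In the libraries labelled WT, 5 of 10 members were higher by more than 2-fold at day 6 (Tubb3 by 4.20 on the log2 scale, Tubb4a by 2.95, Tuba1a by 2.60, Tubb2a by 2.19 and Tubb2b by 2.13), where 23.2% of all genes were. In the libraries labelled KO none passed 2-fold, where 26.4% of all genes did in either direction. The same genes had log2 ratios there of 0.46 for Tubb3, -0.82 for Tubb4a, 0.78 for Tuba1a, 0.56 for Tubb2a and 0.10 for Tubb2b. Rescaling the libraries to the same sum lowered the ratios of the libraries labelled KO by 0.29, and Tubb4a was then past 2-fold with -1.12, where 15.8% of all genes were lower. The 5 calls of the libraries labelled WT held after rescaling, where 15.3% of all genes were higher. In absolute level Tubb3 gained 530 FPKM in the libraries labelled WT and 11.4 in those labelled KO, and Tuba1a gained 1853 and 280.

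The step of the libraries labelled WT lay between day 4 and day 6. In the libraries labelled WT, no member passed 2-fold from ES cells to day 2, where 13.2% of all genes did. From day 2 to day 4 Tubb3 was lower by more than 2-fold (log2 ratio -1.19), the only member past the limit, where 13.8% of genes were lower. From day 4 to day 6 the 5 members named above were higher, Tubb3 by 5.28 on the log2 scale, where 17.0% of genes were higher. In the libraries labelled KO, Tubb4a was higher at day 2 than in ES cells (log2 ratio 1.07), where 6.01% of genes were, and Tubb3 was lower from day 2 to day 4 (-1.21), where 7.72% were. From day 4 to day 6 Tubb3 (1.20) and Tubb2a (1.02) were higher there, 2 of the 10 members, where 12.4% of genes were. These KO-label steps lay close to the limit and depended on the scale. Rescaled to the same sum, Tubb3 kept its step from day 4 to day 6 (1.02), while Tubb4a at day 2 (0.74), Tubb3 from day 2 to day 4 (-0.998, just within 2-fold) and Tubb2a at day 6 (0.84) were within it. On that scale Tubb2a (-1.17) and Tubb2b (-1.16) were lower at day 2 than in ES cells, where 14.7% of genes were, and Tubb4a was lower from day 4 to day 6 (-1.10), where 14.9% were. Under the WT label the calls of both later steps held, Tubb3 with -1.06 and then 5.09, and Tubb2b (-1.02) and Tubb6 (-1.03) became lower at day 2, where 14.0% of genes were, and Tubb6 higher at day 4 (1.06), where 18.7% were. Other marker sums moved with the step from day 4 to day 6. The ES cell genes went from 30.1 to 342 FPKM under the WT label and from 180 to 886 under the KO label, the neural progenitor genes from 334 to 123 and from 71.1 to 19.2, and the general neuronal genes from 38.9 to 619 and from 47.9 to 103. Their part in the step was not tested.

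**Figure D4:**
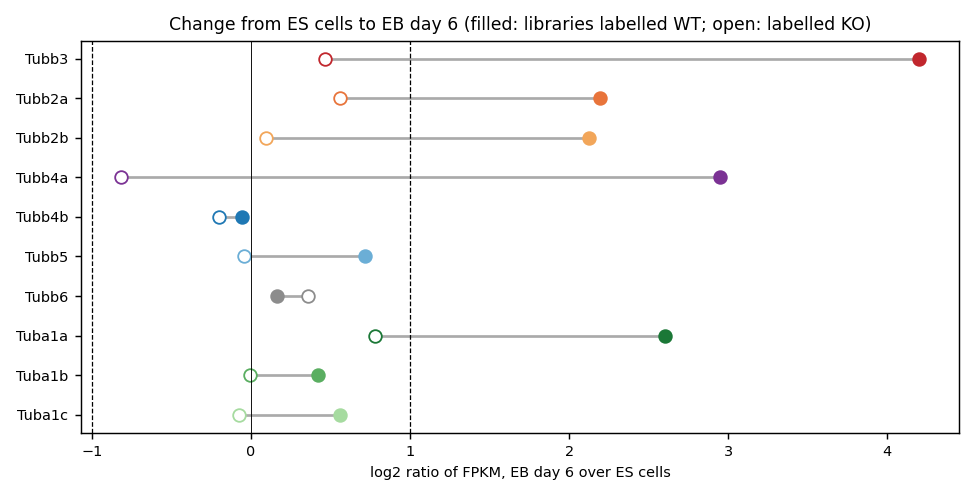
Log2 ratio of FPKM at EB day 6 over ES cells (x axis) for each tubulin isotype, filled for the libraries labelled WT and open for those labelled KO; dashed lines mark 2-fold. Tubb3 has 4.20 in the libraries labelled WT and 0.46 in those labelled KO, Tubb4a has 2.95 and -0.82, and the points of Tubb4b and Tubb6 lie close together.

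The isotype make-up of the tubulin mRNA was taken as each member's share of the summed FPKM of its pool, 7 beta-tubulins or 3 alpha-tubulins. Tubb3 was 1.70% of the beta-tubulin pool in the ES library labelled WT and 1.57% in the one labelled KO. At day 6 it was 15.4% in the library labelled WT and 2.19% in the one labelled KO. It was 15.7% and 12.5% in spinal column and 18.8% in spinal cord. The share of Tubb3, Tubb2a, Tubb2b and Tubb4a together was 11.6% and 11.7% in ES cells, 8.60% and 9.09% at day 2, and 8.44% and 10.4% at day 4. At day 6 it was 37.2% and 14.2%, in spinal column 65.9% and 55.1%, and in spinal cord 79.6%. The beta-tubulin mRNA of the day 6 library labelled KO thus had nearly the make-up of ES cells.

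Tuba1a was 18.6% of the alpha-tubulin pool in the ES library labelled WT and 19.3% in the one labelled KO. At day 6 it was 50.4% and 29.5%, and in spinal column 67.6% and 64.3%. The pools themselves were smaller in the day 6 library labelled KO. The 7 beta-tubulins summed to 3638 FPKM in the library labelled WT and 1887 in the one labelled KO, a ratio of 0.519, and the 3 alpha-tubulins to 4400 and 2279, a ratio of 0.518. Against ES cells of the same label the beta-tubulin pool was 2.03 times as large at day 6 in the libraries labelled WT and 0.986 times in those labelled KO.

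**Figure D5:**
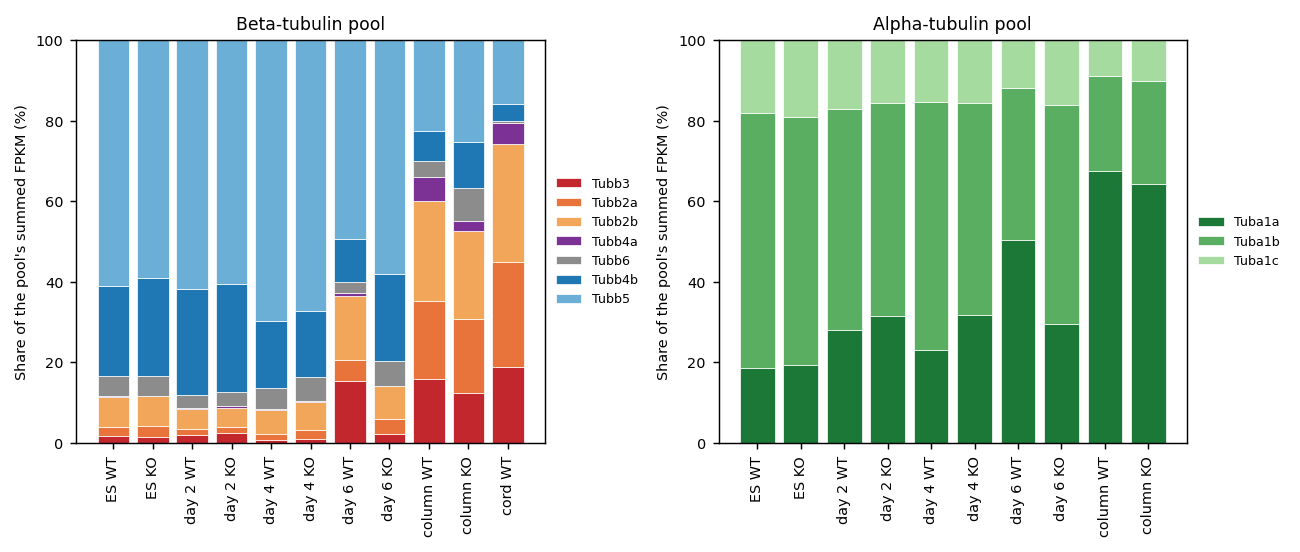
Share of each isotype in the summed FPKM of the beta-tubulin pool (left, 7 genes) and the alpha-tubulin pool (right, 3 genes) by library; y axes in percent, each bar 1 library adding up to 100, spinal cord left out on the right because Tuba1a was not estimated there. At day 6 Tubb3, Tubb2a, Tubb2b and Tubb4a make up 37.2% of the beta-tubulin pool in the library labelled WT and 14.2% in the one labelled KO.

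In newborn spinal column 1 of 10 members was lower by more than 2-fold in the library labelled KO, Tubb4a, where 8.51% of 14194 genes were. Tubb3 had a log2 ratio of -0.67, Tubb2b of -0.52, Tubb2a of -0.42, Tubb5 of -0.16 and Tuba1a of -0.07. Tuba1b (0.11), Tuba1c (0.20), Tubb4b (0.26) and Tubb6 (0.71) were above 0. The summed FPKM of the loci as listed differed between these libraries, 519726 against 761155. In these sums 13 loci flagged for too many reads stood at 0, Acta1, Ckm and Myh8 among them. Rescaling both libraries to the same sum lowered every log2 ratio by 0.55, where the median of all genes had been 0.06. On that scale 3 members were past 2-fold and lower (Tubb4a, Tubb3 with -1.22 and Tubb2b with -1.07), where 25.1% of all genes were lower and 3.57% higher, so the count of members lay near the share of all genes. The signs of Tuba1b, Tuba1c and Tubb4b turned on that scale.

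The column is a mixed tissue, and its marker levels differed between the libraries. The 10 neuronal genes summed to 875 FPKM in the library labelled WT and 441 in the one labelled KO, the 4 cartilage and bone genes to 1591 and 846, and the 2 skeletal muscle genes estimated there went in opposite directions. Tnnt3, a troponin of fast muscle, had 2927 and 4489 FPKM, and Myh3, the embryonic myosin heavy chain, had 420 and 218. All 10 neuronal genes were above 1 FPKM in both libraries. The 6 astrocyte and oligodendrocyte genes summed to 151 and 117 FPKM, the 6 neural progenitor genes to 42.3 and 26.3, and the 6 motor neuron genes to 34.9 and 17.8. Higher under the KO label were the sums of the 2 erythroid genes found (17.9 and 32.2), the simple epithelial genes (6.23 and 19.7) and the ES cell genes (17.4 and 21.7). The other 3 muscle genes of the list (Myh8, Acta1, Ckm) were flagged for too many reads and not estimated. The part of these tissues in the tubulin values was not tested.

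In spinal cord, compared with the ES library labelled WT in the same table, 4 of the 9 members estimated there were higher by more than 2-fold, where 30.5% of 14348 genes were. Their log2 ratios were 6.11 for Tubb4a, 4.54 for Tubb2a, 4.50 for Tubb3 and 3.01 for Tubb2b. Tubb6 (-3.19) and Tubb4b (-1.36) were lower by more than 2-fold, where 35.7% of genes were. Tubb5 (-0.91), Tuba1b (0.24) and Tuba1c (0.87) stayed within it. Rescaled to the same sum, where the ratios stand higher by 0.63, Tubb4b was within 2-fold (-0.73) and Tuba1c past it, and 40.9% of all genes were higher and 23.8% lower. Tubb3 was 749 FPKM in cord and 561 at day 6 in the library labelled WT, whereas Tubb2a, Tubb2b and Tubb4a were 5.55, 2.01 and 9.73 times as high in cord, again across separately normalized tables, where 26.1% of all genes were higher. Tubb6 (log2 ratio -3.23), Tubb5 (-1.51) and Tubb4b (-1.18) were lower in cord than at day 6, where 34.3% of genes were. Rescaled to the same sum, Tubb3 was 2.52 times as high in cord and Tuba1c 2.54 times, where 42.3% of genes were higher, and Tubb5 and Tubb4b were within 2-fold. Marker sums differed between cord and the ES library labelled WT (here in its table with the KO label). The general neuronal genes had 1792 and 193 FPKM, the astrocyte and oligodendrocyte genes 387 and 6.97, and the ES cell genes 8.67 and 1342. Their part in the tubulin values was not tested.

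By their levels over the 11 libraries, the genes most like Tubb3 were Cbln1, a synaptic organizer of the cerebellin family, with a Pearson correlation of 0.977 on log2(FPKM + 1), and Nefm, a neurofilament subunit, with 0.971. They were followed by Uts2b (0.969), Gstm7 (0.968), Slc10a4 (0.967), Rundc3a (0.965), 6330409D20Rik (0.963), Igsf21 (0.961), Pcdhb5 (0.959) and Scrt1 (0.959). At day 6 Cbln1 had 24.3 FPKM in the library labelled WT and 2.48 in the one labelled KO, and Nefm had 107 and 4.09. Among 15749 genes Tubb2b ranked 31st (0.935), Tubb2a 53rd (0.923) and Tubb4a 136th (0.893). Tuba1c (0.30), Tuba1b (-0.16), Tubb6 (-0.44), Tubb5 (-0.46) and Tubb4b (-0.63) were far from Tubb3, and Tuba1a could not be ranked. The 11 points share cell stocks and tables and fall into groups with and without neurons, so these correlations are descriptions.

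Genes that act on tubulin were read from lists. Of 15 expressed tubulin-modifying enzymes at day 6, 3 were lower by more than 2-fold in the library labelled KO and 1 was higher, beside the 9.93% and 10.5% of all genes given above. Atat1, the alpha-tubulin acetyltransferase, had 36.7 FPKM in the library labelled WT and 6.62 in the one labelled KO (log2 ratio -2.47). Vash1, a tubulin carboxypeptidase that removes the terminal tyrosine, had 20.0 and 4.54 (-2.14), and its relative Vash2 had a log2 ratio of -1.66. Ttll6, a polyglutamylase, was higher, with 0.620 and 1.40 FPKM. None of the 14 enzymes expressed in ES cells, at day 2 or at day 4 passed 2-fold, where 1.13%, 2.59% and 16.5% of all genes did. After rescaling Agbl2 was higher at day 4, 1 of 15 beside 13.9% of all genes. In spinal column 1 of 14 was lower, Agtpbp1, with 12.0 and 5.91 FPKM, beside 8.51% of all genes. Rescaled to the same sum, 7 of 15 were lower in spinal column (Ttl, Ttll1, Ttll5, Atat1, Hdac6, Agbl5 and Agtpbp1), beside 25.1% of all genes, so that count rests on the scaling. The median log2 ratio of the list at day 6 was -0.27. From ES cells to day 6, 7 of 14 of these enzymes were higher by more than 2-fold in the libraries labelled WT, beside 23.2% of all genes, and 2 of 15 in those labelled KO, beside 16.9%. Ttll4 was lower under both labels, 1 of 14 beside 15.1% of all genes and 1 of 15 beside 9.54%, and stayed lower after rescaling. Rescaled, 6 of 15 and 0 of 15 were higher, beside 15.3% and 12.6% of all genes. In spinal cord 8 of 14 were higher than in ES cells, beside 30.5% of all genes, and 1 was lower, Ttll4, beside 35.7%. Rescaled, 10 of 16 were higher in cord, beside 40.9%, and Ttll4 was lower, beside 23.8%. Atat1 went from 4.34 to 36.7 FPKM under the WT label and had 92.3 in spinal cord.

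The 21 genes for tubulin folding (chaperonin subunits, prefoldins and tubulin cofactors) gave no call at day 6, with a median log2 ratio of -0.05, where 20.5% of all genes were called in either direction. Nor did they give one in ES cells or at days 2 and 4, where 1.13%, 2.59% and 16.5% of all genes were called. From ES cells to day 6, 5 of the 21 were higher in the libraries labelled WT, a share near the 23.2% of all genes. None was lower there, where 15.1% of all genes were. The 5 higher genes were the cofactors Tbcc (log2 ratio 1.91), Tbca (1.24) and Tbcb (1.04) and the prefoldin subunits Pfdn5 (1.54) and Pfdn2 (1.03). After rescaling 2 of them, Tbcc and Pfdn5, were past 2-fold, where 15.3% of all genes were higher. In the libraries labelled KO 1 of the 21 was higher, Tbcc, where 16.9% of all genes were, and none was lower, where 9.54% were. In spinal cord 9 of the 21 were lower than in ES cells by more than 2-fold, where 35.7% of all genes were, so that count is near that of all genes. None was higher, where 30.5% of all genes were. The 9 lower genes were the 8 listed subunits of the CCT chaperonin, with log2 ratios from -1.68 for Cct5 to -2.40 for Cct8, and Vbp1. Rescaled, the 8 CCT subunits were lower, 8 of 21 beside 23.8% of all genes, and Tbca, Tbcb and Pfdn5 were higher, 3 of 21 beside 40.9%. In spinal column Pfdn5 (153 and 366 FPKM) and Pfdn1 (60.7 and 122), both prefoldin subunits, were higher by more than 2-fold in the library labelled KO, 2 of 21 beside 9.07% of all genes. After the rescaling above both were within 2-fold and Tbcd was lower, 1 of 21 beside 25.1% of all genes. Of the other tubulin genes, Tuba4a had 17.7 FPKM (WT) and 43.1 (KO) at day 4 and 23.4 and 51.5 at day 6, both past 2-fold. At day 4 this was 1 of 6 such genes, where 12.1% of all genes were higher. After rescaling it was 2 of 7, with Tuba8 added, where 13.9% were. Tuba3b was lower under the KO label at day 6 (2.90 and 1.08). Tuba4a and Tuba3b were the calls among 7 such genes expressed at day 6, where 10.5% of all genes were higher and 9.93% lower. From ES cells to day 6, Tuba3a (log2 ratio 2.24 under the WT label and 1.89 under the KO label) and Tuba3b (2.72 and 1.63) were higher past 2-fold under both labels, 2 of 7 in each, beside 23.2% and 16.9% of all genes, and both held after rescaling. Tuba3b was low, with 0.439 and 0.347 FPKM in the ES libraries labelled WT and KO. Sequence shared between Tuba3a and Tuba3b was not examined, so they may not be separate calls. Tuba4a was lower under the WT label (-1.63), 1 of 7 beside 15.1% of all genes, and had -0.53 under the KO label. In spinal cord 4 of 6 of these genes were lower than in ES cells and 1 was higher, beside 35.7% and 30.5% of all genes. Tubg2, a gamma-tubulin, was higher (3.07 FPKM in ES cells and 27.5 in cord), Tuba3a was listed at 0 in cord, and Tube1, the epsilon-tubulin, was lower (5.97 and 0.384). After rescaling 2 of 7, Tuba3a and Tube1, were lower, beside 23.8% of all genes, and Tubg2 was higher, beside 40.9%.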

How the data were processed

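Poly-A RNA-seq libraries and ChIP-seq peak lists were used as deposited. FPKM values came from the authors, by TopHat (guided by RefSeq) and Cuffdiff on mm9, 2 libraries to a table, and the peak lists with Bowtie and MACS; versions, options and the way reads shared between paralogs were assigned are not given in the sources used here. Each deposited peak carries a MACS score, and the meaning of its scale is not stated. The tables also hold the authors' own fold changes and p-values, which were not used. The IgG library was not analysed here.

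Symbols were assigned through RefSeq accessions for 22766 of 23152 loci. Loci flagged HIDATA (too many reads, listed at 0) were left out of the comparison concerned, which concerns Tuba1a in the table of spinal cord and ES cells. In the sums used for rescaling the flagged loci stood at 0. There were 13 in the spinal column table, 4 in the day 4 table and 2 in the table of spinal cord and ES cells. Low values showed no clear steps of whole reads, so depth was not recovered and is unknown. The ES library labelled WT is listed in 2 tables, whose values differ by a median factor of 1.09. A gene entered a comparison above 1 FPKM in at least 1 library and was called past 2-fold; the share of all genes called is given beside the members. With 1 library per condition no p-value was computed. Likeness to Tubb3 was Pearson's correlation on log2(FPKM + 1), over genes above 1 FPKM in at least 1 library and flagged in none.

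Positions are mm9 with 1-based starts, and starts and UTRs are those of GENCODE vM1. A peak was placed by its midpoint, within 500 bp of a start or within 50 kb of the gene, and peaks overlapped when they shared at least 1 base. Python 3.11.15, pandas 2.3.3, numpy 2.4.6 and matplotlib 3.10.9 were used, and the calling step was tested on simulated data. All members are described. Other genes are named when among the 10 most correlated with Tubb3, or, within a list of tubulin-related genes, among the 2 highest and 2 lowest past 2-fold. For the rise to day 6 and for spinal cord not every such gene of the lists is named. Vash2, Cct5, Vbp1, Ttll4 and the further genes of calls that were gained or lost by rescaling, or of the rise to day 6, were added after their values were seen. Counts of the lists, of all genes and of the steps between stages after rescaling were added after the data were seen. The members and lists were chosen with earlier results of these data known.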

Additional observations from a re-analysis of the deposited data

Results flagged for a closer look

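Tubb4a moved in opposite directions from ES cells to EB day 6 under the 2 labels. Its log2 ratio of FPKM was 2.95 in the libraries labelled WT (2.81 to 21.7 FPKM) and -0.82 in those labelled KO (3.07 to 1.74 FPKM). It was the one member with opposite directions past 1.5-fold, among the 10 pairs of stages compared for library labelled KO over library labelled WT and this pair. With 1 library per condition the difference was not tested, and the second value was within 2-fold. That value comes from levels near the limit of 1 FPKM. With 1 FPKM added to both levels it was within 1.5-fold too, and the flag was lost.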

How the results depend on the processing

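Of 73 recomputed counts and shares, 64 were within 1.5 times the reported count or gave the reported share, and of 246 ratios of single members 6 crossed the 2-fold limit and none turned in sign after a call. The 6 were Tubb3 and Tubb2b in spinal column, Tubb4b and (by 2 scalings) Tuba1c in spinal cord, and Tubb4a from ES cells to day 6 under the KO label, all by rescaling or centring. The steps between stages and cord over day 6 are not in these counts. Of their 69 member ratios 16 were past 2-fold as deposited and 19 after rescaling, with 5 calls lost and 8 gained. Within 100 bp of a start 3 members had a TAF9B peak, within 5 kb 8, and with scores above the median 2, in place of 5. In spinal column 1 member was past 2-fold; 3 were after rescaling every library to the same sum (which moved the calls over all genes from 1288 higher and 1208 lower to 536 and 3771), 3 at 1.5-fold and none (0) at 3-fold. From ES cells to day 6 under the KO label the count of 0 became 1 after rescaling and 2 at 1.5-fold. At day 6, with members that share sequence summed (chosen after seeing the data), 3 of 7 units were lower instead of 5 of 10 members. Adding the other tubulin genes to the pools left the Tubb3 share at day 6 at 15.4% and changed no share by more than 2.49 percentage points. No paired analysis was possible because each condition is 1 library, so the labels' replicate numbers pair nothing and no replicate could be left out. Depth is unknown, and replicate error cannot be had from these libraries.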
